A study of Mus musculus with 51 samples.

Results

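Amino acid transporters of mouse neutrophils are described here through 8 genes, Slc7a5, Slc3a2, Slc7a7, Slc7a1, Slc7a6, Slc1a5, Slc38a1 and Slc38a2, out of 50600 gene identifiers in the count tables. They were listed by name, and the list was chosen by the measured RNA changes of Slc7a5 and Slc7a7, which went in opposite directions in cells labelled CEBPB-/-. The values of that line are therefore given as a description with no test. Its wild-type libraries also serve other comparisons of set 1, which are for that reason not fully independent of the choice. RNA was counted in 28 libraries of ER-Hoxb8 neutrophils. These are mouse progenitors kept dividing in stem cell factor by an estrogen-dependent Hoxb8 and matured into neutrophils by removing estrogen and adding G-CSF. After 5 days of maturation the cells received DMSO or 50 µg/ml zymosan, a yeast cell wall particle, for 2 h. The first set of libraries (set 1) comprised wild type beside CEBPB-/- and JUNB-/- cells, and the second (set 2) wild type beside IRF5-/- and RELB-/- cells, each with DMSO and with zymosan. RUNX1-/- and KLF6-/- cells were measured with DMSO only, in a later table that repeats the wild type of set 2. Each of these 14 groups had 2 libraries. Whether a line is 1 clone is not given in the sources used here. RNA was also counted in 15 libraries of neutrophils sorted from CX3CR1GFP Ly6GCre-tdTomato mice, with 5 libraries from the exudate of an air pouch, 2 from the pouch membrane, 5 from blood and 3 from bone marrow. All these mice had carried a pouch for 6 days and had received 100 µg zymosan in it 4 h earlier, so no tissue comes from an unchallenged mouse, and their age is not given in the sources used here. Open chromatin was mapped by ATAC-seq in 8 libraries, 2 from Ly6G+ cells of each of these 4 tissues.

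Large neutral amino acids enter many cells through LAT1, a heterodimer of the light chain Slc7a5, which takes up leucine in exchange for intracellular amino acids, and the heavy chain Slc3a2 (CD98hc), which brings several light chains to the cell surface. Slc7a7 (y+LAT1) and Slc7a6 (y+LAT2) also pair with Slc3a2 and exchange cationic amino acids such as arginine against neutral amino acids with sodium, while Slc7a1 (CAT1) carries arginine and lysine without a partner. Slc1a5 (ASCT2), Slc38a1 (SNAT1) and Slc38a2 (SNAT2) carry glutamine and other small neutral amino acids with sodium, and Slc38a2 is known for its induction when amino acids are scarce.

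The read pairs assigned to genes per library numbered 19370000 to 34260000 in ER-Hoxb8 cells and 9240000 to 19110000 in tissues. Levels are CPM (counts scaled to an equal library total) corrected with TMM, edgeR's correction for library composition, and changes are log2 differences from edgeR's quasi-likelihood fit with their standard error (SE). Genes are called changed where the p-value, adjusted by Benjamini and Hochberg's method over all genes of the table, lies below 0.05. Nothing in the labels says that the 2 libraries of a group came from separate cultures, so p-values measure only the spread between these libraries, which may be technical. Scaling by total counts instead of TMM moved the median of all genes in the 6 zymosan comparisons from between -0.09 and 0.05 to between -1.02 and -0.69. Small rises with zymosan therefore depend on the scaling. Against wild type that median went from -0.117 to -0.666 (JUNB, DMSO) and from -0.012 to -0.532 (JUNB, zymosan). It went from 0.024 to 0.367 for RUNX1 and from 0.038 to 0.023 for RELB with DMSO. Small differences between lines can thus depend on it too. Each direction of a called member change, or of a value of the CEBPB-labelled line, that total counts turned is named. Members that were not called were not searched for turned directions. The targeted genes gave a mixed check of the labels in DMSO. Relb averaged 67.9 CPM in the line labelled RELB-/- against 169.9 in its wild type, Junb 499 against 899.7 in the line labelled JUNB-/-, and Irf5 81.4 against 98.6 in the line labelled IRF5-/-. Such drops were not particular to the labelled line. Relb was also at 73.5 CPM in the IRF5-labelled line, and at 94.2 (RUNX1) and 112 (KLF6) against 217.5. Irf5 was lower in the RELB-labelled line (38.8) than in the IRF5-labelled line. Junb was at 469 in the IRF5-labelled line against 918, but at 1154 in the CEBPB-labelled line against 899.7. Cebpb was at 524 CPM in the line labelled CEBPB-/- against 507, Runx1 at 135 against 52.2 and Klf6 at 738 against 544, so these 3 were not lower in the lines labelled as lacking them. With zymosan, Junb averaged 2121 CPM in the JUNB-labelled line against 2305, Relb 373 in the RELB-labelled line against 458, and Irf5 109.9 in the IRF5-labelled line against 137. Cebpb then averaged 2535 CPM in the CEBPB-labelled line against 1004. The deleted stretch is not given in the sources used here, and RNA from outside it would not show a deletion, so the lines are named by their labels throughout. In bulk libraries, fewer cells of a type and less RNA per cell cannot be told apart.

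The genes lie on 6 mouse chromosomes in GRCm38 coordinates. Slc7a5 spans 8:121881150-121907694 and Slc7a6 8:106168857-106198706. Slc3a2 spans 19:8706882-8723369, Slc7a7 14:54369442-54417780, Slc7a1 5:148327410-148399904 and Slc1a5 7:16781340-16798274. Slc38a1 (15:96571418-96642913) and Slc38a2 (15:96687394-96699698) lie close together. Slc7a6 and Slc1a5 are on the plus strand and the other 6 on the minus strand. Promoter sequences from RefSeq (GRCm38.p6, 250 bases before to 50 after a start site) matched 5 members with 11 entries. Letter patterns of the studied factors and of the amino acid response were searched on both strands in all 32851 entries. These were TGATGNAA, the composite of C/EBP and ATF4, found in 3.97% of entries, TTGCNNAA for C/EBP (10.8%), TGANTCA for AP-1, the complex of JUNB (7.81%), GGGNNTTCC for NF-kB, the family of RELB (5.82%), GAAA followed after any 2 bases by GAAA for IRF (3.44%), TGTGGT for RUNX (16.8%) and GGGNGGG for KLF (48.1%). The 250 bases before 4 start sites are printed, in the strand of the gene. Each holds a match to 1 or more of the patterns other than that of KLF, shown in capitals, and each such pattern found in a member is seen in 1 of them. Entries at 2 further starts of Slc7a7, not printed, overlap the first sequence. One of them, 14:54417630-54417929, holds the NF-kB pattern 147 bases before its start. The other, 14:54417895-54418194, holds the C/EBP-ATF composite 141 bases before its start, and again from 1 base before it and across the start. The NF-kB match and the latter composite match are the same bases as those in the first sequence printed below. The KLF pattern matched 8 of the 11 member entries and is left in lower case.
Slc7a7 (chr14:54417703-54417952, minus strand): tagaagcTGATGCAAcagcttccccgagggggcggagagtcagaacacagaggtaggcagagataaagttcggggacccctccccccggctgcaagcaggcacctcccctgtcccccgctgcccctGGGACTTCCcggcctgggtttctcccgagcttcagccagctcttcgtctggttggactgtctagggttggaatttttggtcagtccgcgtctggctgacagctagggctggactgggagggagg
Slc7a7 (chr14:54410204-54410453, minus strand): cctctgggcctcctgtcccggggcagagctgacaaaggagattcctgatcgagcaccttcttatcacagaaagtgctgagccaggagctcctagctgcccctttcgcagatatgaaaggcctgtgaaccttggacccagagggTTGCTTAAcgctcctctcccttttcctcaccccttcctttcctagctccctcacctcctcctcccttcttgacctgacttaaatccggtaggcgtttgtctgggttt
Slc7a1 (chr5:148399905-148400154, minus strand): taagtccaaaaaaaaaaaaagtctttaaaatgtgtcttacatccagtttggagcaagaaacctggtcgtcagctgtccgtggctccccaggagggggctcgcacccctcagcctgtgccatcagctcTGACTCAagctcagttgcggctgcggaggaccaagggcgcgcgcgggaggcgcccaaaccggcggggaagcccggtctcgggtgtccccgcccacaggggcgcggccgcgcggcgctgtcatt
Slc3a2 (chr19:8713898-8714147, minus strand): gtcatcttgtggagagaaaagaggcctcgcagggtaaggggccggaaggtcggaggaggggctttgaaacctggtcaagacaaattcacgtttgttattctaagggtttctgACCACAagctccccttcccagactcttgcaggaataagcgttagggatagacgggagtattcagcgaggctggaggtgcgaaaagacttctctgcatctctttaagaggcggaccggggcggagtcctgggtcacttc
The first Slc7a7 sequence, at 1 of the 3 starts nearest the 5′ end of the gene, holds the C/EBP-ATF composite 243 bases and the NF-kB pattern 124 bases before the start site. The second, at 1 of 2 starts farther into the gene, holds the C/EBP pattern 107 bases before it. The Slc7a1 sequence holds the AP-1 pattern 123 bases before its start. The Slc3a2 sequence holds the RUNX pattern on the opposite strand 138 bases before its start. That start lies inside the gene as annotated above and not at its 5′ end. A match of these letters is a description of the sequence and not a binding site.

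Zymosan was followed by more RNA of all 8 transporters in wild-type cells of set 1 and of 7 of the 8 in set 2, apart from the directions that total counts turned, given below. Slc3a2, the shared heavy chain, stood at 162 and 169.6 CPM with DMSO and at 924 and 902 with zymosan in set 1, 5.51-fold more (log2 2.46 ± 0.04, adjusted p = 1.43e-52). In set 2 it went from 155 and 152 CPM to 959.9 and 977 (log2 2.66 ± 0.03, adjusted p = 2.21e-79). Every zymosan library lay far above every DMSO library of its set. All 8 members were called in each set, against 75.6% of all genes (35.7% higher, 39.9% lower) in set 1 and 68.4% of all genes (36.3% higher, 32.1% lower) in set 2. The median change of the 8 members was 1.31 against -0.07 over all genes in set 1, and 1.18 against 0.05 in set 2. The 8 dendritic cell markers summed to 108 to 109.6 CPM with DMSO and 260.9 to 261.2 with zymosan in set 1, and to 92.5 to 95.0 and 305 to 308 in set 2. Among them Siglech was at 0 in all but the DMSO group of set 2, and Xcr1 in the DMSO group of set 1. The 4 platelet markers, none at 0, summed to 39.5 to 40.3 CPM with DMSO and 78.3 to 89.0 with zymosan in set 1, and to 26.1 to 27.3 and 39.0 to 41.7 in set 2. The 12 neutrophil markers, none at 0, summed to 25950 to 27590 CPM with DMSO and 21040 to 21380 with zymosan in set 1, and to 47410 to 49500 and 61180 to 62520 in set 2. The 6 eosinophil and mast cell markers, none at 0, were at 1637 to 1641 CPM and then 1378 to 1443 in set 1, and at 3477 to 3543 and then 5516 to 5532 in set 2. Their part in the zymosan response was not tested.

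Slc7a5, the light chain of LAT1, went from 15.96 and 15.8 CPM to 37.9 and 40.3 in set 1 (log2 1.30 ± 0.07, adjusted p = 6.23e-25). In set 2 it went from 11.9 and 11.6 to 21.7 and 19.6 (log2 0.81 ± 0.08, adjusted p = 1.04e-14), a direction that turned under total counts (-0.06). Slc7a7, the arginine exchanger, had 2.33 and 1.83 CPM before and 4.25 and 4.35 after zymosan in set 1 (log2 1.04 ± 0.15, adjusted p = 1.66e-08). It was thus low in wild type but did not overlap between DMSO and zymosan. In set 2 it had 1.23 and 1.43 CPM against 2.93 and 2.59 (log2 1.04 ± 0.22, adjusted p = 2.02e-05), and total counts removed that call (0.17). Slc7a1, the arginine carrier without a partner, rose from 6.50 and 6.32 CPM to 41.7 and 44.7 in set 1 (log2 2.75 ± 0.08, adjusted p = 1.11e-37), the largest member change there. Its rise in set 2, from 9.90 and 10.7 CPM to 30.7 and 34.6 (log2 1.66 ± 0.08, adjusted p = 3.98e-31), was smaller. Slc7a6, the second y+L exchanger, rose from 6.24 and 5.22 CPM to 11.9 and 12.9 in set 1 (log2 1.12 ± 0.12, adjusted p = 2.44e-12) and by log2 1.61 ± 0.14 in set 2.

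Among the glutamine carriers, Slc38a1 rose from 20.9 and 20.8 CPM to 58.5 and 58.9 in set 1 (log2 1.497 ± 0.06, adjusted p = 1.46e-30). In set 2 it rose from 23.2 and 22.5 CPM to 56.7 and 56.7 (log2 1.31 ± 0.05, adjusted p = 1.22e-37). In both sets the zymosan libraries lay above the DMSO libraries. Slc1a5 rose from 8.41 and 9.33 CPM to 21.5 and 22.8 in set 1 (log2 1.33 ± 0.09, adjusted p = 4.68e-19). In set 2 it was at 10.1 and 9.47 CPM with DMSO and 12.98 and 13.4 with zymosan (log2 0.43 ± 0.10, adjusted p = 0.000138), where total counts turned the direction (-0.45) and the call was lost without the second wild-type zymosan library (adjusted p = 0.0583). Slc38a2 was abundant throughout and went opposite ways in the sets. In set 1 it was at 270 and 247 CPM with DMSO and 306 and 319 with zymosan (log2 0.28 ± 0.04, adjusted p = 1.83e-09), which total counts turned (-0.43). In set 2 it fell from 312 and 311 CPM to 225 and 228 (log2 -0.46 ± 0.03, adjusted p = 3.44e-28).

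The wild types of the sets responded differently at 5 members by the interaction of set and zymosan, where 38.6% of all genes were called. The response was lower in set 2 for Slc7a1 (-1.23 ± 0.12), Slc1a5 (-1.04 ± 0.13), Slc38a2 (-0.87 ± 0.05), Slc7a5 (-0.63 ± 0.11) and Slc38a1 (-0.32 ± 0.08). The last was lost without the second DMSO library of set 1 (adjusted p = 0.0581) or the first of set 2 (adjusted p = 0.11). Slc3a2 (0.06 ± 0.05), Slc7a7 (-0.14 ± 0.29) and Slc7a6 (0.36 ± 0.18) did not pass the test. Scaled together, the summed neutrophil markers, 12 genes with none at 0, were at 30030 to 31610 CPM in DMSO libraries of set 1 and at 54490 to 57060 in those of set 2. With zymosan they were at 25180 to 25490 and 66460 to 67740. The eosinophil and mast cell markers were at 1876 to 1898 CPM in DMSO libraries of set 1 and at 3997 to 4084 in those of set 2. The 5 progenitor markers, none at 0, were at 71.1 to 76.5 and at 172 to 173 CPM in the same libraries. Their part in this difference was not tested.

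Levels of different genes were compared as CPM per kilobase of exon. With DMSO, Slc38a2 (55.8 ± 3.58 SD, n = 2, in set 1 and 67.3 ± 0.0440 in set 2) and Slc3a2 (47.0 ± 1.54 and 43.5 ± 0.653) stood far above the other 6. Slc7a5 came next in both sets, at 4.28 ± 0.0289 and 3.17 ± 0.0428 CPM per kilobase, followed by Slc38a1 and Slc1a5. At the low end, Slc7a7 (0.631 ± 0.109) and Slc7a1 (0.556 ± 0.0107) did not differ beyond their spread in set 1, and in set 2 Slc7a7 was lowest at 0.404 ± 0.0443. With zymosan, Slc3a2 led in both sets, at 259 ± 4.45 and 274 ± 3.42 CPM per kilobase, ahead of Slc38a2 at 67.6 ± 1.94 and 49.0 ± 0.462. Slc7a7 was then lowest in both sets, at 1.31 ± 0.0216 and 0.837 ± 0.0736.

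**Figure D1:**
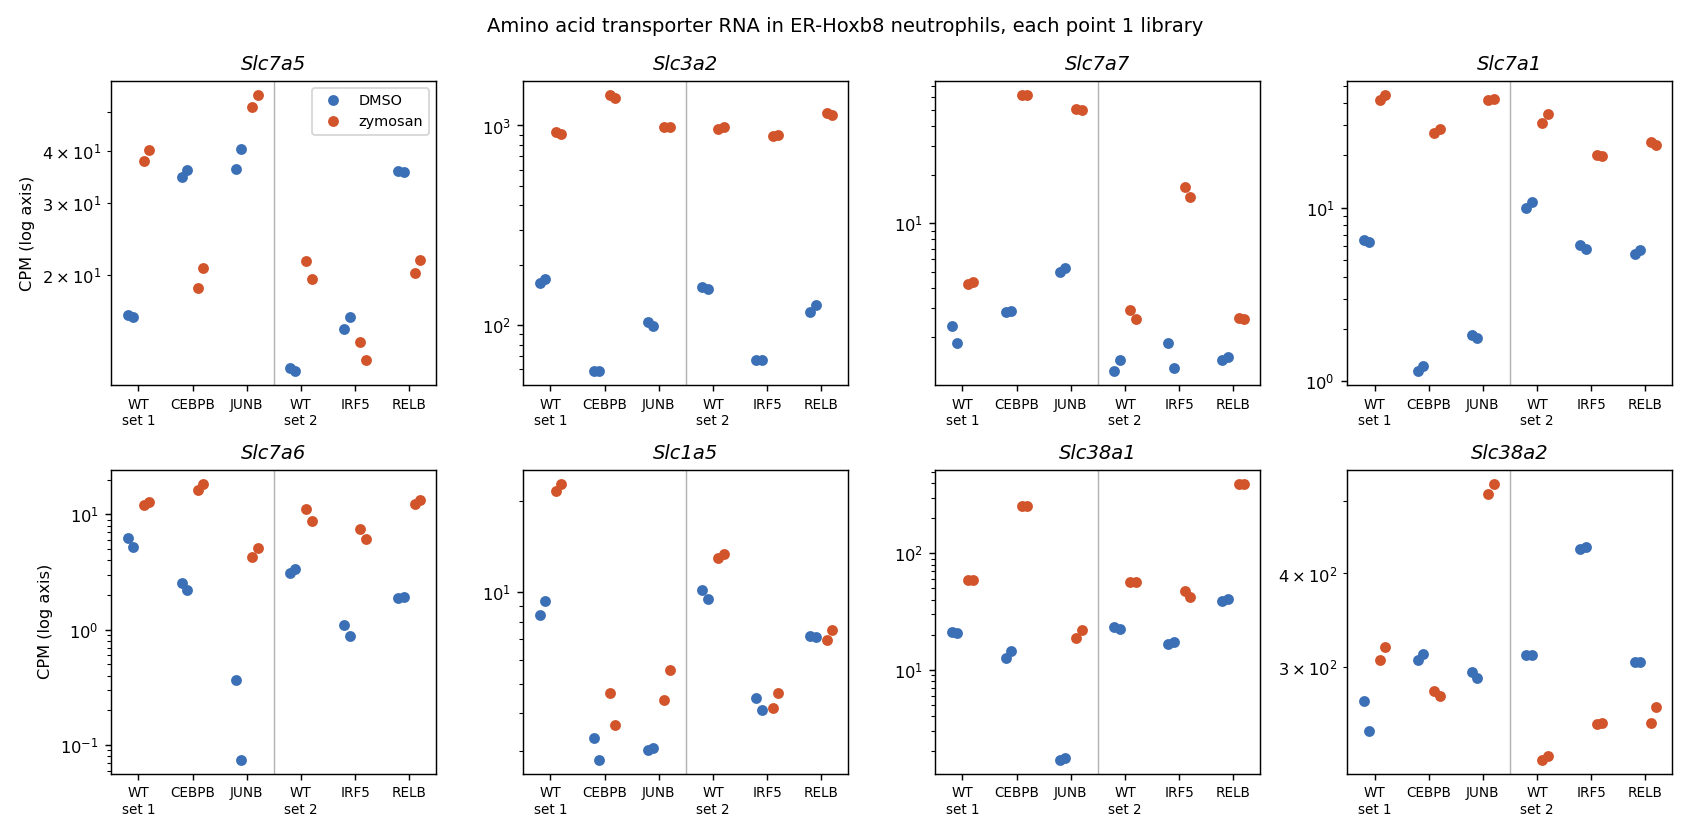
CPM of each transporter (log axis) in each ER-Hoxb8 library of set 1 (left of the line) and set 2 (right), with DMSO in blue and zymosan in orange-red, 2 libraries per group. Slc3a2 is higher in each zymosan group than in the DMSO group of the same line, and Slc7a5 is lower with zymosan than with DMSO in the lines labelled CEBPB, IRF5 and RELB.

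In the line labelled JUNB-/-, Slc7a5 and Slc7a7 were high without zymosan while most other transporters were low. All 8 members were called there, 3 higher and 5 lower, against 76.4% of all genes (35.4% higher, 41.1% lower). Slc7a5 was at 36.3 and 40.7 CPM against 15.96 and 15.8 in wild type (log2 1.27 ± 0.07, adjusted p = 9.97e-25). Slc7a7 was at 5.00 and 5.34 CPM against 2.33 and 1.83 (log2 1.31 ± 0.14, adjusted p = 3.59e-12). Both were above every wild-type DMSO library. Slc38a1, a glutamine carrier, stood at 1.68 and 1.74 CPM against 20.9 and 20.8 (log2 -3.60 ± 0.12, adjusted p = 5.16e-35). Slc7a6 stood at 0.369 and 0.0742 CPM against 6.24 and 5.22 (log2 -4.62 ± 0.27, adjusted p = 1.58e-22), the former from only 11 and 2 counts. These were the deepest member differences of the line. Slc7a1 (-1.82 ± 0.14), Slc1a5 (-1.54 ± 0.13) and Slc3a2 (-0.71 ± 0.04) were lower as well. Slc38a2 was at 295 and 290.2 CPM against 270 and 247 (0.18 ± 0.04), a direction that total counts turned (-0.37).

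With zymosan, the JUNB-labelled line had 7 of 8 members called (4 higher, 3 lower), against 76.5% of all genes (39.1% higher, 37.4% lower). Slc7a7 reached 50.8 and 50.2 CPM against 4.25 and 4.35 in wild type, 11.7-fold more (log2 3.55 ± 0.10, adjusted p = 1.03e-38). Slc38a2 was at 511 and 528 CPM against 306 and 319 (log2 0.73 ± 0.04, adjusted p = 1.44e-25). Neither gene overlapped between the lines. Slc1a5, a glutamine carrier, was at 4.43 and 5.54 CPM against 21.5 and 22.8 (log2 -2.14 ± 0.12, adjusted p = 1.06e-23), and Slc38a1 (-1.52 ± 0.07) and Slc7a6 (-1.39 ± 0.14) were lower too. Slc7a5 was at 51.3 and 54.97 CPM against 37.9 and 40.3 (log2 0.44 ± 0.06, adjusted p = 1.08e-08), which total counts turned (-0.08). Slc7a1 overlapped between the lines, at 41.9 and 42.4 CPM against 41.7 and 44.7 (-0.04 ± 0.07, adjusted p = 0.613). Slc3a2 was at 981 and 983 CPM against 924 and 902 (log2 0.11 ± 0.03, adjusted p = 0.00395), a call that RLE scaling, DESeq2, a fit of the compared groups alone and the loss of the second wild-type zymosan library each removed, and that total counts turned (-0.42).

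Within the JUNB-labelled line all 8 members were called higher with zymosan than with DMSO, against 73.2% of all genes (36.5% higher, 36.7% lower). The zymosan response itself differed between the JUNB-labelled line and wild type for all 8 members (interaction, 43.6% of all genes called). Slc7a7 rose from 5.00 and 5.34 to 50.8 and 50.2 CPM in that line, a response larger than in wild type by log2 2.24 ± 0.19 (adjusted p = 1.19e-15). Slc7a6 (3.23 ± 0.36), Slc38a1 (2.08 ± 0.15), Slc7a1 (1.78 ± 0.16) and Slc3a2 (0.82 ± 0.05) also rose more, all from DMSO levels below wild type, and Slc38a2 rose more by 0.55 ± 0.05. Slc7a5 had the smaller response (-0.83 ± 0.09, adjusted p = 2.77e-11), and its own change with zymosan in that line (0.47 ± 0.06) was turned by total counts (-0.21). Slc1a5 also had a smaller response (-0.61 ± 0.19, adjusted p = 0.00749), which was lost without the first JUNB-labelled zymosan library (adjusted p = 0.0681), and total counts removed its call within the line (0.72 ± 0.17 to 0.05). The summed neutrophil markers, none at 0, were at 73760 to 80700 CPM with DMSO and 81750 to 84620 with zymosan in the JUNB-labelled libraries, and at 25950 to 27590 and 21040 to 21380 in wild type. The 8 monocyte and macrophage markers, none at 0, summed to 789 to 791 CPM with DMSO against 1229 to 1247 and to 842 to 856 with zymosan against 1153 to 1185. The platelet markers, none at 0, summed to 3.69 to 4.75 CPM with DMSO against 39.5 to 40.3 and to 4.43 to 5.36 with zymosan against 78.3 to 89.0. The 6 eosinophil and mast cell markers summed to 221 to 225 CPM with DMSO against 1637 to 1641 and to 231 to 237 with zymosan against 1378 to 1443, with Fcer1a at 0 in the JUNB-labelled groups. The dendritic cell markers summed to 2.75 to 2.99 CPM with DMSO against 108 to 109.6, with Xcr1 and Siglech at 0 in both and H2-Aa and H2-Ab1 also in the JUNB-labelled group. With zymosan they summed to 151 to 158 CPM against 260.9 to 261.2, with Xcr1, Siglech and H2-Ab1 at 0 in the JUNB-labelled group and Siglech in wild type. The progenitor markers, none at 0, summed to 101.9 to 103.5 CPM with DMSO against 62.0 to 66.1 and to 150.2 to 153.6 with zymosan against 65.9 to 68.9. Their part in the transporter values was not tested.

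In the line labelled IRF5-/-, Slc7a7 was higher than in wild type after zymosan, and Slc7a5 was then lower. Slc7a7 stood at 16.7 and 14.6 CPM with zymosan against 2.93 and 2.59 in wild type (log2 2.51 ± 0.16, adjusted p = 2.73e-23). With DMSO it stood at 1.84 and 1.29 against 1.23 and 1.43, where the groups overlapped (0.22 ± 0.22, adjusted p = 0.388). Its response was larger than in wild type by log2 2.29 ± 0.28 (adjusted p = 1.22e-10), in an interaction that called 33.3% of all genes. Slc7a5 was at 14.8 and 15.8 CPM with DMSO and 13.7 and 12.4 with zymosan. It was above wild type with DMSO (0.38 ± 0.08, adjusted p = 1.39e-05) and below it with zymosan (-0.66 ± 0.09, adjusted p = 4.29e-09), with a response lower by log2 -1.04 ± 0.12 (adjusted p = 2.21e-11). The fall of Slc7a5 with zymosan within the line (log2 -0.23 ± 0.09, adjusted p = 0.0233) was lost with RLE scaling, with DESeq2 and without the second library of either group, at adjusted p between 0.0504 and 0.151.

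The other transporters of the IRF5-labelled line were mostly lower than in wild type. With DMSO 7 of 8 members were called, 2 higher and 5 lower, against 64.6% of all genes (35% higher, 29.6% lower). With zymosan all 8 were called, 2 higher and 6 lower, against 60.4% of all genes (29.6% higher, 30.8% lower). Within the line 5 members were called higher and 2 lower with zymosan, against 69.8% of all genes (34.3% higher, 35.4% lower). Slc1a5 was at 4.17 and 4.66 CPM with zymosan against 12.98 and 13.4 (log2 -1.58 ± 0.14, adjusted p = 4.41e-17). Within the line it overlapped between DMSO and zymosan under TMM (0.04 ± 0.16, adjusted p = 0.839). Total counts moved the median of all genes in that comparison from -0.024 to -0.958, so this lack of a change may depend on the scaling. Slc3a2, the heavy chain, was at 67.2 and 66.8 CPM with DMSO against 155 and 152 (log2 -1.20 ± 0.03, adjusted p = 1.26e-49). With zymosan it was at 883 and 899 against 959.9 and 977 (-0.12 ± 0.02), so its response was larger (1.07 ± 0.04, adjusted p = 1.89e-39). The gap between the lines thus narrowed with zymosan. Slc7a6 differed by -1.70 ± 0.20 with DMSO and by -0.54 ± 0.14 with zymosan, the latter lost without the second IRF5-labelled or the first wild-type zymosan library (adjusted p = 0.0571 and 0.0906). Its response was larger than in wild type (1.16 ± 0.25). Slc7a1 differed by -0.79 ± 0.10 and -0.71 ± 0.08, and Slc38a1 by -0.42 ± 0.06 and -0.34 ± 0.05. Slc38a2 was higher, at 432 and 434 CPM with DMSO against 312 and 311 (0.48 ± 0.02). With zymosan it differed by 0.15 ± 0.03, which total counts turned (-0.03). The neutrophil markers, none at 0, summed to 61500 to 63570 CPM with DMSO and 89140 to 90550 with zymosan in the IRF5-labelled libraries, and to 47410 to 49500 and 61180 to 62520 in wild type. The eosinophil and mast cell markers summed to 651 to 659 CPM with DMSO against 3477 to 3543 and to 1041 to 1061 with zymosan against 5516 to 5532, with Fcer1a at 0 in the IRF5-labelled groups. The monocyte and macrophage markers summed to 610.1 to 611 CPM with DMSO against 989 to 993 and to 1175 to 1190 with zymosan against 1032 to 1037, with C1qa at 0 in the IRF5-labelled groups and C1qb in that with zymosan. The dendritic cell markers summed to 40.9 to 42.4 CPM with DMSO against 92.5 to 95.0, with Xcr1, Siglech and H2-Ab1 at 0 in the former. With zymosan they summed to 419 to 429 CPM against 305 to 308, with Siglech at 0 in both and Xcr1 in the former. The platelet markers, none at 0, summed to 5.52 to 6.17 CPM with DMSO against 26.1 to 27.3 and to 8.21 to 10.4 with zymosan against 39.0 to 41.7. The progenitor markers, none at 0, summed to 220.8 to 221.1 CPM with DMSO against 148.9 to 150.5 and to 245.4 to 245.8 with zymosan against 172.7 to 177.6. Their part in these values was not tested.

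In the line labelled RELB-/-, Slc7a5 was high without zymosan and Slc38a1 was high with it. Slc7a5 was at 35.8 and 35.7 CPM with DMSO against 11.9 and 11.6 (log2 1.61 ± 0.07, adjusted p = 1.54e-34). It fell to 20.2 and 21.8 with zymosan (-0.77 ± 0.07, adjusted p = 2.81e-17), where it overlapped wild type (0.02 ± 0.08, adjusted p = 0.838). Its response was below that of wild type by log2 -1.58 ± 0.11 (adjusted p = 4.15e-22, with 31.4% of all genes called). Slc38a1 was at 38.6 and 40.6 CPM with DMSO against 23.2 and 22.5 (log2 0.79 ± 0.05, adjusted p = 3.15e-25). With zymosan it was at 390 and 397 against 56.7 and 56.7, 6.93-fold more (log2 2.79 ± 0.04, adjusted p = 1.62e-67). This was the highest Slc38a1 level of the set 2 groups. Slc7a7 was at 1.45 and 1.497 CPM with DMSO and 2.60 and 2.58 with zymosan, and no difference from wild type was called (0.14 ± 0.22 and -0.09 ± 0.21, with -0.22 ± 0.30 in response). Its rise with zymosan in that line (0.82 ± 0.21, adjusted p = 0.000461) was turned by total counts (-0.07).

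Counted over the list, 6 of 8 members were called in the RELB-labelled line with DMSO, 2 higher and 4 lower, against 59.4% of all genes (32.1% higher, 27.3% lower). With zymosan 6 of 8 were called, 4 higher and 2 lower, against 56.0% of all genes (27.1% higher, 28.9% lower). Within the line 5 members were called higher and 2 lower with zymosan, against 72.7% of all genes (35.2% higher, 37.5% lower). Slc1a5 was lower in both states (-0.46 ± 0.10 and -0.87 ± 0.12), and so was Slc7a1 (-0.90 ± 0.10 and -0.48 ± 0.08). Slc3a2 was lower with DMSO (-0.34 ± 0.03) and higher with zymosan (0.24 ± 0.02). Slc7a6 followed the same order (-0.76 ± 0.17 and 0.37 ± 0.12), and its zymosan call was lost without the second wild-type zymosan library (adjusted p = 0.139). Slc38a2 differed by -0.03 ± 0.02 with DMSO, which was not called, and by 0.19 ± 0.03 with zymosan. Both this line and the IRF5-labelled line were compared with the same wild-type libraries. The interaction called 7 of 8 members, all but Slc7a7. That of Slc1a5 (-0.42 ± 0.16, adjusted p = 0.0319) was lost with RLE scaling, with DESeq2, without a filter, in the fit of the compared groups and without each of 7 of the 8 libraries in turn. The eosinophil and mast cell markers summed to 427 to 434 CPM with DMSO in the RELB-labelled libraries against 3477 to 3543 and to 594 to 599.8 with zymosan against 5516 to 5532, with Fcer1a at 0 in the RELB-labelled groups. The neutrophil markers, none at 0, summed to 51510 to 51870 CPM with DMSO against 47410 to 49500 and to 69880 to 70020 with zymosan against 61180 to 62520. The monocyte and macrophage markers summed to 801 to 802 CPM with DMSO against 989 to 993 and to 1083 to 1096 with zymosan against 1032 to 1037, with C1qa at 0 in the RELB-labelled groups. The dendritic cell markers summed to 24.03 to 24.32 CPM with DMSO against 92.5 to 95.0, with Xcr1 and Siglech at 0 in the former, and to 149 to 150 with zymosan against 305 to 308, with Siglech at 0 in both. The platelet markers, none at 0, summed to 4.60 to 4.88 CPM with DMSO against 26.1 to 27.3 and to 5.26 to 7.04 with zymosan against 39.0 to 41.7. Their part in these values was not tested.

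**Figure D2:**
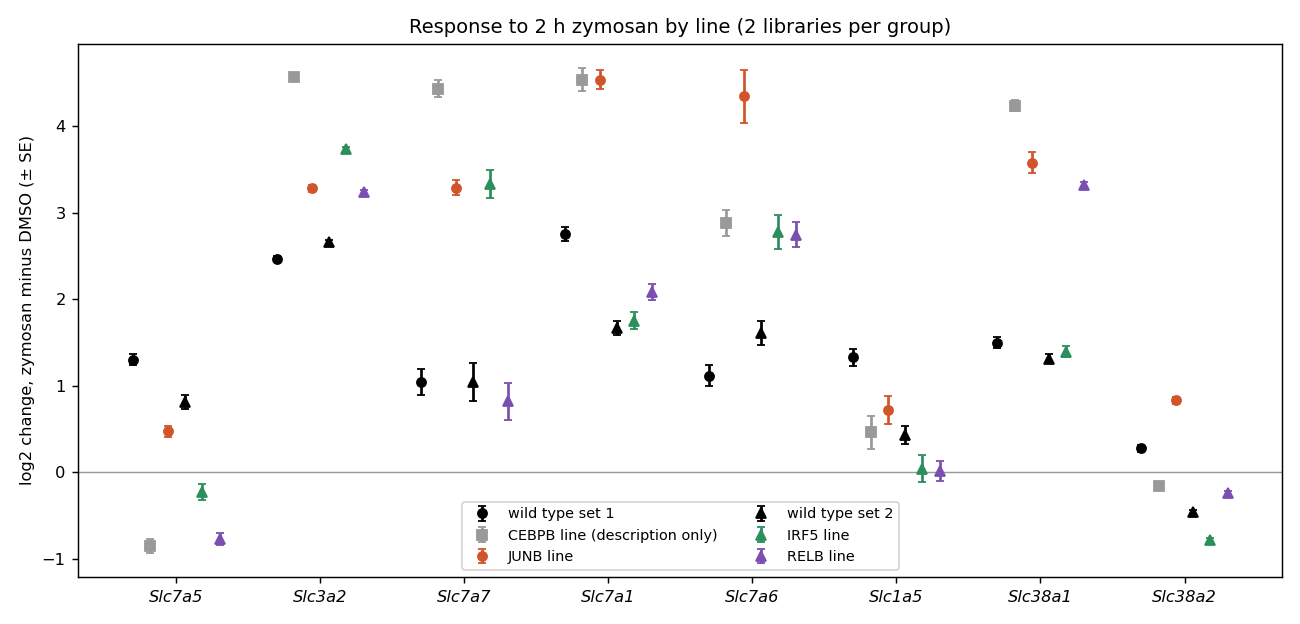
Log2 change with zymosan (zymosan minus DMSO, ± SE from the edgeR fit) of each transporter in 6 ER-Hoxb8 lines, circles and squares for set 1 and triangles for set 2, with the CEBPB line as a description only. Slc7a5 is above 0 in both wild types and the JUNB line (0.47 to 1.30; the set 2 wild type and the JUNB line turn under total counts) and below 0 in the IRF5, RELB and CEBPB lines (-0.85 to -0.23), while Slc7a7 is above 3 in the JUNB, IRF5 and CEBPB lines.

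The line labelled CEBPB-/- supplied the contrast that chose the genes, so its values stand without a test. Slc7a5 was at 34.7 and 36.02 CPM with DMSO and 18.6 and 20.8 with zymosan, against 15.96 and 15.8 and then 37.9 and 40.3 in wild type, the opposite order. Slc7a7 was at 2.86 and 2.87 CPM with DMSO and 62.0 and 61.8 with zymosan, against 4.25 and 4.35 in wild type with zymosan. These are log2 differences from wild type with zymosan of -0.999 ± 0.08 and 3.84 ± 0.10. Slc3a2, the heavy chain of both, was at 58.8 and 59.2 CPM with DMSO and 1423 and 1370 with zymosan, the lowest and the highest group means of set 1. Slc38a1 went from 12.5 and 14.5 CPM to 253 and 256. Slc7a1 went from 1.15 and 1.23 CPM to 27.1 and 28.3, below wild type in both states. Slc7a6 went from 2.53 and 2.19 CPM to 16.4 and 18.5, and Slc1a5 from 3.30 and 2.81 to 4.67 and 3.67. Slc38a2 was at 306 and 312 CPM with DMSO and 278 and 274 with zymosan. The directions that turned under total counts were those of Slc38a2 with DMSO (0.26 ± 0.04 to -0.09), Slc7a6 with zymosan (0.48 ± 0.12 to -0.10) and the zymosan change of Slc1a5 (0.46 ± 0.19 to -0.47). The shares called were 70.5% of all genes (33.6% higher, 36.9% lower) against wild type with DMSO, 67.9% of all genes (35% higher, 32.9% lower) with zymosan, 73.5% of all genes (35.1% higher, 38.4% lower) for zymosan within the line and 41.0% for the interaction, and nothing is read from them beside the members. The neutrophil markers, none at 0, summed to 56450 to 57770 CPM with DMSO in this line against 25950 to 27590 and to 45060 to 45730 with zymosan against 21040 to 21380. The eosinophil and mast cell markers summed to 514 to 536 CPM with DMSO against 1637 to 1641 and to 570.2 to 583 with zymosan against 1378 to 1443, with Fcer1a at 0 in the CEBPB-labelled groups. The monocyte and macrophage markers summed to 1647 to 1651 CPM with zymosan against 1153 to 1185, with C1qa at 0 in the former. The dendritic cell markers summed to 73.8 to 74.3 CPM with DMSO against 108 to 109.6, with Xcr1 and Siglech at 0 in both and H2-Ab1 in the former. With zymosan they summed to 564 to 565 CPM against 260.9 to 261.2, with Siglech at 0 in both and Xcr1 in the former. The platelet markers, none at 0, summed to 7.87 to 8.32 CPM with DMSO against 39.5 to 40.3 and to 11.5 to 13.3 with zymosan against 78.3 to 89.0. Their part in these values was not tested.

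Without zymosan, 7 transporters were higher in the line labelled RUNX1-/- and lower in the line labelled KLF6-/- than in wild type, and Slc38a2 went the other way in both. All 8 members were called in each, against 74.4% of all genes (38.4% higher, 36% lower) for the RUNX1-labelled and 65.4% of all genes (30.8% higher, 34.6% lower) for the KLF6-labelled line. Both comparisons use the same 2 wild-type libraries, so their opposite signs are not independent. Slc7a1 was at 36.5 and 36.1 CPM in the RUNX1-labelled line against 12.7 and 13.8 in wild type (log2 1.46 ± 0.07, adjusted p = 7.31e-23). In the KLF6-labelled line it was at 9.19 and 9.94 (log2 -0.47 ± 0.09, adjusted p = 1.89e-05). Slc38a1 was at 74.8 and 73.7 CPM in the RUNX1-labelled line against 29.7 and 28.8 (log2 1.35 ± 0.05, adjusted p = 6.09e-28). It was at 15.7 and 15.6 in the KLF6-labelled line (log2 -0.91 ± 0.06, adjusted p = 8.93e-17). Every RUNX1-labelled library was above and every KLF6-labelled library below the wild type for these genes.

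Slc7a7 followed the same order at low levels. It had 4.804 and 5.00 CPM in the RUNX1-labelled line, 1.57 and 1.84 in wild type, and 0.680 and 0.328 in the KLF6-labelled line, the last from 19 and 9 counts. Its differences from wild type were 1.52 ± 0.18 (adjusted p = 7.33e-10) and -1.75 ± 0.31 (adjusted p = 3.12e-06). Slc7a5 was at 29.7 and 30.1 CPM in the RUNX1-labelled line against 15.2 and 14.9 (log2 0.99 ± 0.07, adjusted p = 1.8e-16). In the KLF6-labelled line it was at 11.2 and 13.5 (log2 -0.29 ± 0.09, adjusted p = 0.00383), a call lost with DESeq2 (adjusted p = 0.0781) and without the first KLF6-labelled library (adjusted p = 0.186). The groups did not overlap in either line. Slc7a6 differed by 1.32 ± 0.12 and -1.48 ± 0.19, Slc1a5 by 1.28 ± 0.07 and -0.32 ± 0.09, and Slc3a2 by 0.53 ± 0.02 and -0.85 ± 0.03. Slc38a2 was at 319 and 321 CPM in the RUNX1-labelled line and 475 and 467 in the KLF6-labelled line, against 399 and 399, and its RUNX1 difference (-0.32 ± 0.02) was turned by total counts (0.03). The neutrophil markers, none at 0, summed to 17070 to 17140 CPM in the RUNX1-labelled line, 60690 to 63400 in wild type and 72850 to 76610 in the KLF6-labelled line. The monocyte and macrophage markers summed to 1513 to 1523, 1266 to 1271 and 944 to 951 CPM in the same order, with C1qa at 0 in both labelled lines and C1qb also in the RUNX1-labelled one. The eosinophil and mast cell markers summed to 677 to 684, 4451 to 4538 and 538 to 548 CPM, with Fcer1a at 0 in both labelled lines. The dendritic cell markers summed to 445 to 446, 119 to 122 and 56.3 to 58.0 CPM, with Siglech at 0 in both labelled lines and Xcr1 and H2-Aa also in the KLF6-labelled one. The 6 fibroblast and endothelial markers summed to 196 to 199, 26.7 to 27.7 and 23.9 to 24.4 CPM, with Col1a2, Col3a1 and Dcn at 0 in all 3 groups and Cdh5 in both labelled lines. The 5 progenitor markers, none at 0, summed to 95.6 to 98.4, 191 to 193 and 272.5 to 272.8 CPM, and the platelet markers, none at 0, to 41.2 to 44.2, 33.5 to 34.9 and 4.33 to 4.48. Their part in the transporter values was not tested.

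**Figure D3:**
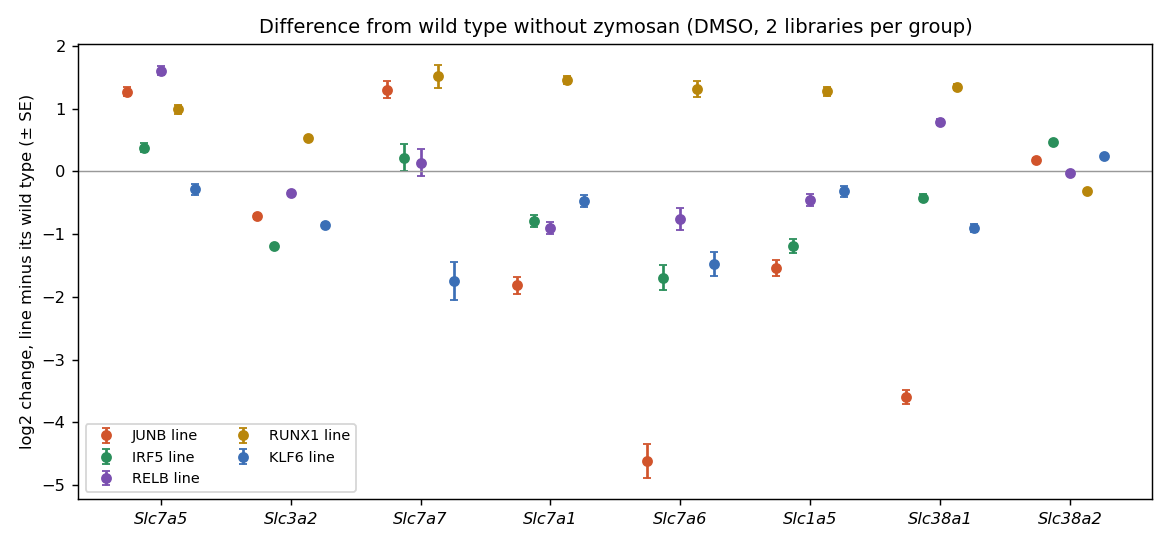
Log2 difference from wild type with DMSO (line minus its own wild type, ± SE from the edgeR fit) of each transporter in 5 lines, 2 libraries per group. The RUNX1 line is above 0 for every gene but Slc38a2 (which total counts turn) and the KLF6 line below 0 for every gene but Slc38a2, and the lowest points are Slc7a6 (-4.62) and Slc38a1 (-3.60) in the JUNB line.

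Across the 28 ER-Hoxb8 libraries, with log2(CPM + 1) centred within each set, several members varied together, and Slc7a5 had an r between -0.076 and 0.186 with each of the other 7. Slc7a6 and Slc38a1 had a Pearson r of 0.90, Slc3a2 and Slc7a1 of 0.88, and Slc3a2 and Slc7a7 of 0.69. Slc7a5 had an r of 0.04 with its partner Slc3a2 and of 0.06 with Slc7a7. The genes with the pattern most like Slc7a5 among 6014 were Gclm (r = 0.77), Cuta (0.71) and Gadd45g (0.71), and those most like Slc7a7 among 6015 were Tmem248 (0.90), Cotl1 (0.86) and Crk (0.86). These values describe 14 groups of 2 libraries that share lines, treatment and depth, and are not tests. They include the CEBPB-labelled and set 1 wild-type libraries whose Slc7a5 and Slc7a7 changes chose the list. The r values of these 2 genes are therefore not independent of that choice.

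Other genes of amino acid handling were read from 6 lists of transport, sensing and metabolism genes, with counts under TMM first and under total counts second, since the scaling decides many of them. Their counts stand beside 75.6% of all genes (35.7% higher, 39.9% lower) called with zymosan in the set 1 wild type and 68.4% of all genes (36.3% higher, 32.1% lower) in that of set 2, both under TMM. The share of all genes called under total counts is not given. With that scaling the median change of all genes was -0.767 in set 1, against -0.067 under TMM. In set 2 it was -0.823 against 0.049. Counts under total counts include this shift of all genes, so they check the scaling and are not read as results about the lists. Of 24 other plasma membrane amino acid transporters 7 were expressed enough to be tested in set 1. With zymosan in wild type, 6 of these rose and 1 fell in set 1 (4 and 3 under total counts), with a list median of 1.603. In set 2, 4 of 7 rose and 2 fell (4 and 2). Slc7a11, the cystine-glutamate exchanger that also pairs with Slc3a2, averaged 414 CPM with DMSO and 7417 with zymosan in set 1 (log2 4.16) and 349.5 and 4654 in set 2 (3.74). Slc7a8, another light chain of Slc3a2, rose by 1.71 and 1.67, and Slc16a10, a carrier of aromatic amino acids, by 1.603 and 1.16. These directions held under total counts.

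Of the list of ATF4, the transcription factor of the amino acid response, and its target genes, 12 of 19 rose and 3 fell in set 1 (5 and 7 under total counts). In set 2 16 of 18 rose and 0 fell (6 and 7). Atf3 rose by log2 3.31 and 2.498 in the sets and Atf4 by 1.78 and 1.39. Among genes of arginine and glutamine metabolism, 12 of 18 rose and 1 fell in set 1 (9 and 7), and 11 of 17 rose and 3 fell in set 2 (5 and 7). They included the polyamine enzyme Odc1 (2.94 and 1.71) and the arginase Arg2 (1.39 and 1.63). Of 28 genes of amino acid sensing and mTORC1, the kinase complex that senses amino acids, 11 rose and 13 fell in set 1 (9 and 19). In set 2, 11 rose and 15 fell (7 and 19), with a list median of -0.321 against 0.049 over all genes. Of 20 cytosolic aminoacyl-tRNA synthetases 2 rose and 11 fell in set 1 (1 and 19) and 7 rose and 6 fell in set 2 (2 and 17). Of the lysosomal and other intracellular transporters, 3 of 8 rose and 3 fell in set 1 (2 and 6), and 4 of 9 rose and 2 fell in set 2 (1 and 6). Slc15a3, a peptide and histidine carrier of lysosomes, rose by 2.93 and 3.00.

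In the JUNB-labelled line with zymosan, 13 of 19 genes of the ATF4 list were higher than in wild type and 4 lower (11 and 7 under total counts), with a list median of 1.16 against -0.01 over all genes, where 76.5% of all genes (39.1% higher, 37.4% lower) were called. Atf5, a factor of the same response, averaged 314 CPM against 17.2 (log2 4.19), the pseudokinase Trib3 52.5 against 3.96 (3.71) and Chac1, an enzyme that breaks down glutathione, 29.3 against 2.47 (3.59). Of the 7 other plasma membrane transporters 5 were lower and 2 higher (6 and 1), among them Slc7a8 (13.7 against 128 CPM, -3.23). In the RELB-labelled line with zymosan, 13 of 18 genes of the ATF4 list were lower and 4 higher (13 and 4), with Psat1, an enzyme of serine synthesis, at -3.33, beside 56.0% of all genes (27.1% higher, 28.9% lower) called there. In the IRF5-labelled line with zymosan, 9 of 18 were lower and 4 higher (12 and 2), with Psat1 at -2.43, beside 60.4% of all genes (29.6% higher, 30.8% lower) called. In the RUNX1-labelled line 20 of 20 aminoacyl-tRNA synthetases were higher (20 under total counts), with a median of 0.94 against 0.02 over all genes, of which 38.4% were called higher. There the arginase Arg1 averaged 94.7 CPM against 0.301 in wild type (8.28). For the labelled lines with zymosan, the median of all genes under total counts was -0.532 (JUNB), -0.065 (RELB) and -0.194 (IRF5). With DMSO it was 0.367 (RUNX1) and -0.186 (KLF6). Their counts under total counts include these shifts. In the KLF6-labelled line 15 of 18 genes of arginine and glutamine metabolism were lower and 1 higher (15 and 0), and 12 of 18 of the ATF4 list were lower and 3 higher (14 and 2), beside 65.4% of all genes (30.8% higher, 34.6% lower) called in that line.

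In neutrophils sorted from the mice, Slc3a2 and Slc38a2 were counted in all 15 libraries, and of the other 6 each lay under 1 CPM in 8 to 14 of the 15 libraries. Slc3a2 was at 348, 399.9, 438, 287 and 0.383 CPM in the 5 exudate libraries and at 893 and 248 in the 2 membrane libraries. It was at 239.7, 274, 6.85, 0.207 and 20.3 in blood and at 6.45, 31.5 and 4.06 in bone marrow. Both membrane libraries and 4 of 5 exudate libraries were above all bone marrow libraries, and the blood libraries spanned a wide range. Slc38a2, the glutamine carrier, ran from 7.42 to 87.3 CPM in exudate (median 48.0), from 1.22 to 53.2 in membrane, from 31.3 to 246.8 in blood (median 206) and from 28.9 to 86.6 in bone marrow. It overlapped between all tissues. Slc7a5 was at 38.0, 0, 0, 4.46 and 128 CPM in exudate, at 0.0815 and 0.171 in membrane, at 3.07, 7.35, 0.179, 0.138 and 0.0482 in blood, and at 0.129, 10.5 and 1.89 in bone marrow, so the exudate library with the most Slc7a5 was the one with the least Slc3a2. Slc1a5 was at 125 and 0.171 CPM in the membrane libraries and at most 7.72 in any other library. Slc7a7 had 0 to 23 counts per library and was too low to be tested.

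The spread between libraries of 1 tissue was large for the whole table, with a biological coefficient of variation of 1.86 and rank correlations of 0.356 to 0.714 between libraries of the same tissue. None of the 7 members tested was called by edgeR in any of the 6 tissue comparisons, where the called share of all genes was 0.0162% for blood against bone marrow, 0.0162% for membrane against bone marrow, 0.178% for exudate against bone marrow and 0.0% for the other 3. At an unadjusted p under 0.05 there were 2 members for membrane against bone marrow, 0 for blood against bone marrow and 1 in each of the other 4 comparisons. Slc3a2 had estimates of 4.40 ± 1.82 for exudate against bone marrow (edgeR, adjusted p = 0.172) and 5.35 ± 2.03 for membrane against bone marrow (adjusted p = 0.372). DESeq2 called Slc7a1 lower in membrane than in bone marrow (adjusted p = 0.023), where it had 5, 1 and 106 counts in the 3 bone marrow libraries and 0 and 0 in the 2 membrane libraries, so 1 bone marrow library holds most of the counts. DESeq2 also called Slc7a5 higher in exudate than in membrane (adjusted p = 0.0153), where it had 384, 0, 0, 50 and 1667 counts in exudate and 1 and 2 in membrane, so 2 exudate libraries at 0 lie below membrane. No fold is given for these genes at such counts. Exudate library 5 and blood libraries 1 and 2, known from earlier results to stand apart from their tissues, include the exudate library with the least and the blood libraries with the most Slc3a2. Without these 3 libraries, an alternative chosen after seeing the data, edgeR called Slc3a2 higher in exudate than in bone marrow (4.77 ± 1.22, adjusted p = 0.0362) and than in blood (5.39 ± 1.26, adjusted p = 0.0285), and in membrane than in blood (6.01 ± 1.35, adjusted p = 0.0299), so these calls rest on that choice. Column names of the tissue table carry a tag, 100 or 300, and a number, some shared across tissues, and the meaning of neither is stated. Within the same tag and number, Slc3a2 was at 348 CPM in exudate and 239.7 in blood, at 399.9 and 274, and at 287 and 0.207, higher in exudate in 3 of 3. It was higher in exudate than in bone marrow in 2 of 2, in blood than in bone marrow in 3 of 3 and in membrane than in blood in 2 of 2. Slc38a2 was at 7.42 CPM in exudate and 186 in blood, at 78.7 and 246.8, and at 48.0 and 230.2, lower in exudate in 3 of 3. Slc38a2 was also lower in membrane than in blood and in exudate than in bone marrow in 2 of 2 each. In blood it was above bone marrow in 3 of 3, by little in 1 of them (31.3 against 28.9). The 11 same-numbered pairs of libraries deviated from their tissue means with a median r of -0.006 (from -0.042 to 0.1) across genes, beside 0.001 in the 70 other pairs. With tag and number as a block, chosen after seeing the data, edgeR called Slc3a2 higher in membrane than in bone marrow (6.93 ± 1.90, adjusted p = 0.0172) and none of the other 6 tested members in any comparison. That fit called 273 of 12330 genes in this comparison against 2 without the block, and no membrane library shares a tag with a bone marrow library, so this call rests on libraries of the other tissues. All bone marrow libraries carry 100 and both membrane libraries 300, so tag and tissue cannot be told apart there. The neutrophil markers summed to 85120 to 346800 CPM in exudate, 205200 to 311100 in blood, 234500 to 292700 in bone marrow and 106800 to 154200 in membrane, with Elane at 0 in all 4 tissues and Mpo in membrane. The monocyte and macrophage markers reached at most 173 CPM, in a blood library. The dendritic cell markers summed to 1.53 to 325 CPM in exudate and 180 to 253 in membrane, and the platelet markers reached 149 CPM in an exudate library. Their part in these values was not tested.

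**Figure D4:**
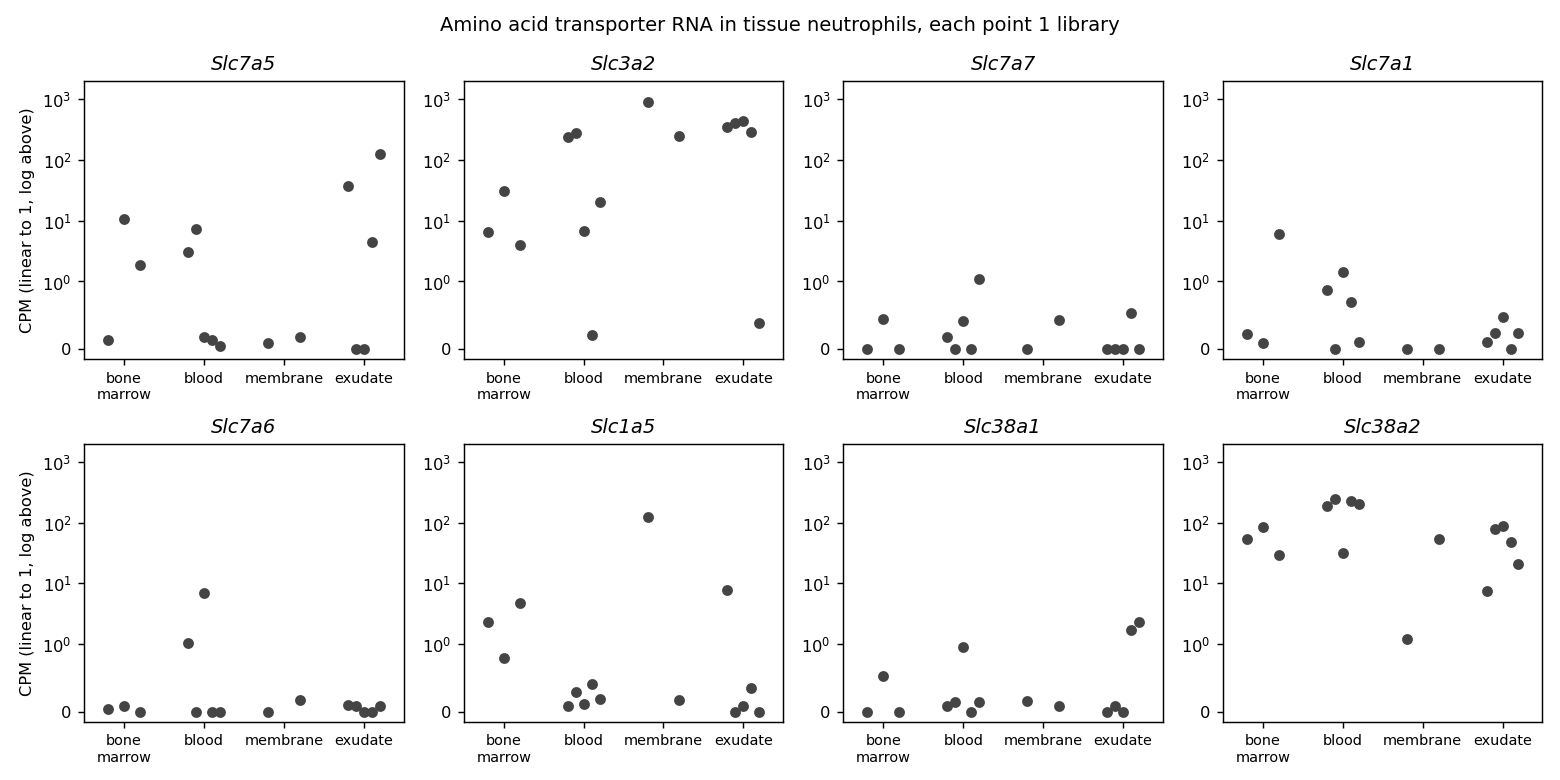
CPM of each transporter (linear from 0 to 1, log above) in each neutrophil library of bone marrow (3), blood (5), membrane (2) and exudate (5). Slc3a2 and Slc38a2 have counts in all 15 libraries, and each of the other 6 lies under 1 CPM in 8 to 14 libraries and higher in the rest.

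Open chromatin in the same tissues was read from the deposited merged sites and from the authors' deposited lists of sites that differed between tissues. Of the 8 members, 7 had a merged site within 1000 bp of their annotated start, beside 80.9% of the genes tested in set 1. Slc7a7 had none there, and its nearest merged site was centred 5782 bp upstream. Merged sites at 14:54409181-54409721 and 14:54409785-54410300 cover 299 and 147 of the 300 bases of the RefSeq entries at the 2 Slc7a7 starts farther into the gene, and the C/EBP pattern printed above lies outside the 147 covered bases. None of the 3 entries at the starts nearest the 5′ end lay in a merged site. The RefSeq entries of Slc3a2 and Slc38a2, both of Slc7a6 and the one of Slc7a1 with the AP-1 pattern lay wholly inside merged sites. That of Slc3a2 is at the start inside the gene and not at its annotated start.

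In the authors' deposited lists, 5 members had a differential site in the gene or within 50000 bp of the start, against 54.4% of the genes tested in set 1, a share near the background. The site 14:54442215-54443072, 24863 bp upstream of Slc7a7 and outside the gene, was more open in exudate relative to bone marrow (-log10 adjusted p 6.38) and to blood (4.11), and in membrane relative to bone marrow (2.10). All 3 listed sites near Slc7a5 were less open in a pouch tissue. A site 26974 bp upstream, at 8:121934383-121934954, was lower in exudate than in blood (2.88) and lower than in bone marrow (2.85). The site 8:121861255-121861778, beyond the end of the gene, was lower in membrane than in blood (1.95) and lower than in bone marrow (1.81), and so was 8:121880168-121880667 relative to bone marrow (1.70). These lists share their blood and bone marrow libraries. In an intron of Slc38a1, 4654 bp from the start, 15:96637982-96638536 was more open in exudate relative to bone marrow (7.26). Another intronic site of that gene, 15:96598824-96599355, was less open in membrane relative to bone marrow (1.74). A site over an exon of Slc1a5, 7:16782337-16782892, was more open in membrane relative to blood (1.80), and 5:148428775-148429323, 29145 bp upstream of Slc7a1, was less open in exudate relative to bone marrow (2.34). Slc3a2, Slc7a6 and Slc38a2 had no listed site in this window, and whether any of these sites acts on the named gene was not tested.

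**Figure D5:**
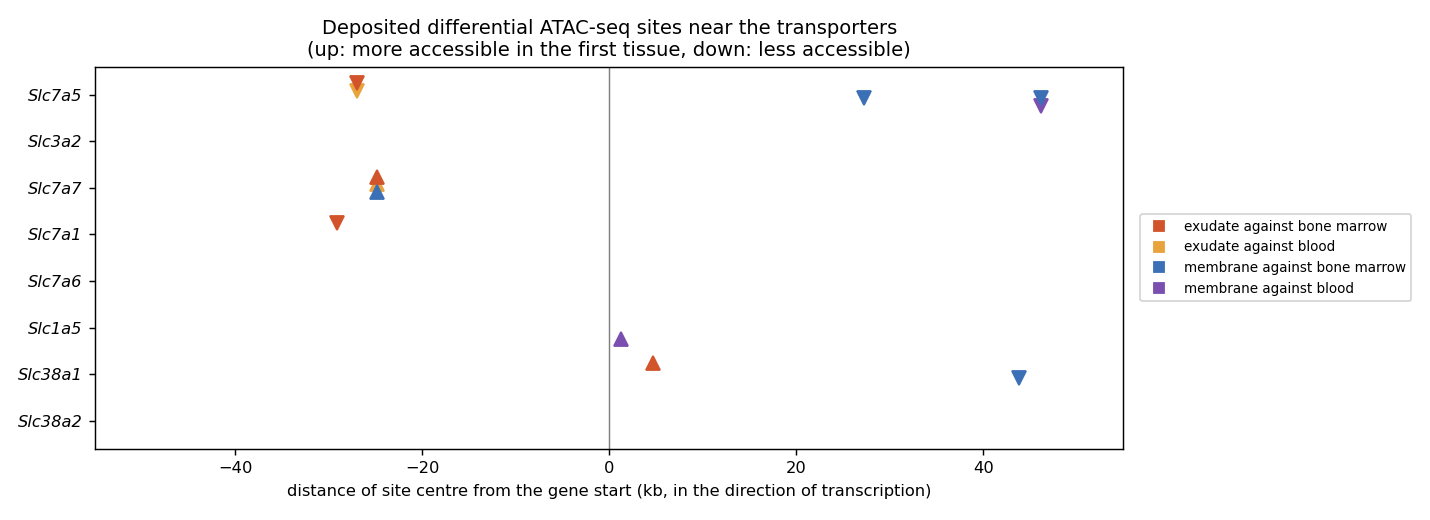
Position of each differential ATAC-seq site of the authors' deposited lists relative to the start of the transporter gene (kb, in the direction of transcription), coloured by tissue comparison, pointing up where the first tissue is more accessible and down where it is less. The site of Slc7a7 points up in 3 comparisons and the 3 sites of Slc7a5 point down in each comparison where they are listed.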

How the data were processed

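The count tables hold raw counts of read pairs per gene from featureCounts, per the file headers. The authors aligned RNA reads with STAR and ATAC-seq reads with Bowtie2 to mm10, trimmed with cutadapt and called peaks with MACS2, per the submitters' processing notes, which give no versions. The deposited lists of differential sites give -log10 of an adjusted p, with no value under that of 0.05. In the merged sites, the deposited score has no stated scale, and 2 other deposited columns give a number of merged peaks and a width. Of 50600 gene identifiers, 50376 matched a symbol.

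Counts were fitted with edgeR 4.0.16 in R 4.3.3 (TMM, quasi-likelihood), with 1 fit per table over all its groups. The filter filterByExpr (count minimum 10, total minimum 15, share 0.7) left 12899 genes in set 1, 13779 in set 2, 13816 in the later table, 13804 in the fit of both wild types and 12330 in the tissues. Tables were normalized separately, so levels are compared within a table. Left out were 18 columns of the set 1 table that match no sample and 8 columns of the later table that repeat lines of set 2. Tissue columns name a tissue and not a sample, so library numbers there follow column order. The tag and number in those names, of unstated meaning, did not pair the libraries by their deviations (1 of 11 pairs with r over 0.1) and enter as an added alternative. Same-numbered ER-Hoxb8 libraries did not deviate together (r from -0.041 to 0.037) and were treated as unpaired. The fits were tested on simulated data with known changes.

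Of the marker genes at 0, 1 is not reported here. The members, gene lists and tests were chosen with earlier results of these data known. Named genes of other lists are among up to 4 called genes of largest change per list with a mean log2 CPM of 2 or more and no overlap of libraries. Likeness is Pearson's r over genes with a mean CPM of 10 or more in both sets. As alternatives, the compared groups were fitted alone, by DESeq2 1.42.0, with RLE scaling, without the filter, with a replicate block or a term for the tissue column tag, and without each library in turn. Site windows of 10000 and 100000 bp were tried too. Total-count scaling, leaving out 3 tissue libraries and a block for the tissue column tag and number were added after seeing the data. Python 3.11.15 and matplotlib 3.10.9 made the figures.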

Additional observations from a re-analysis of the deposited data

Results flagged for a closer look

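In 5 of 16 groups of 5 tissue libraries, 1 library lay far from the other 4 by Dixon's criterion, which chance alone reaches in about 1 of 20 groups if values are spread normally, which was not tested. Blood library 3 was highest for Slc38a1 (0.953 CPM) and Slc7a6 (6.91) and lowest for Slc38a2 (31.3). Exudate library 1 was highest for Slc1a5 (7.72 CPM) and exudate library 4 for Slc7a7 (0.535). The other 4 exudate libraries held 0 counts of Slc7a7, so any count in the fifth meets the criterion, and 3 of the 5 cases are the same blood library.

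The zymosan response differed between groups for 25 of 32 interaction terms of the 8 transporters (edgeR), given here as log2 differences in response. Of all genes, 43.6% were called in the interaction for the JUNB-labelled line, 33.3% for IRF5, 31.4% for RELB and 38.6% for set. In the JUNB-labelled line against wild type these were -0.83 for Slc7a5, 0.82 for Slc3a2, 2.24 for Slc7a7, 1.78 for Slc7a1, 3.23 for Slc7a6, -0.61 for Slc1a5, 2.08 for Slc38a1 and 0.55 for Slc38a2. In the IRF5-labelled line they were -1.04 for Slc7a5, 1.07 for Slc3a2, 2.29 for Slc7a7, 1.16 for Slc7a6 and -0.32 for Slc38a2. In the RELB-labelled line they were -1.58 for Slc7a5, 0.58 for Slc3a2, 0.42 for Slc7a1, 1.13 for Slc7a6, -0.42 for Slc1a5, 2.00 for Slc38a1 and 0.22 for Slc38a2. Between the wild types of set 2 and set 1 they were -0.63 for Slc7a5, -1.23 for Slc7a1, -1.04 for Slc1a5, -0.32 for Slc38a1 and -0.87 for Slc38a2. The response of Slc7a5 was thus smaller than that of wild type in each of the 3 tested lines. These 3 are not independent, since the IRF5- and RELB-labelled lines share their wild-type libraries. The JUNB term uses the set 1 wild type, whose Slc7a5 values also entered the choice of the list.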

How the results depend on the processing

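Of the member changes called by edgeR, total-count scaling (added after seeing the data) turned 10 and removed 2. With zymosan against DMSO, the turned values were -0.43 for Slc38a2 in the set 1 wild type, -0.21 for Slc7a5 in the JUNB-labelled line, -0.064 for Slc7a5 and -0.45 for Slc1a5 in the set 2 wild type, and -0.072 for Slc7a7 in the RELB-labelled line. Against wild type they were -0.37 for Slc38a2 in the JUNB-labelled line with DMSO, -0.08 for Slc7a5 and -0.42 for Slc3a2 in that line with zymosan, -0.027 for Slc38a2 in the IRF5-labelled line with zymosan and 0.026 for Slc38a2 in the RUNX1-labelled line. In the CEBPB-labelled line, not tested, they were -0.091 for Slc38a2 with DMSO, -0.10 for Slc7a6 with zymosan and -0.47 for the zymosan change of Slc1a5. The cause was not tested. RLE scaling, DESeq2, no filter and the compared groups alone removed calls of 3 members, as named with each. Leaving out 1 library at a time gave 0 called members in each tissue comparison. Of comparisons with 8 called members, it gave 7 to 8 for set 2 wild type with zymosan, the IRF5-labelled line with zymosan, the KLF6-labelled line and the JUNB interaction, and 8 in the others. Of those with 7, it gave 6 to 7 for the JUNB-labelled line with zymosan, zymosan within the IRF5-labelled line and the RELB interaction, and 7 in the others. The RELB-labelled line gave 6 with DMSO and 5 to 6 with zymosan, and the interactions of IRF5 and of set 5 to 6. Over all genes of exudate against bone marrow it gave 0 to 197 calls beside 22. In tissues, DESeq2 called 1 member for membrane against bone marrow and 1 for exudate against membrane. Without 3 libraries 1 member was called for exudate against bone marrow, 1 for exudate against blood and 1 for membrane against blood. With the tissue column tag and number as a block 1 member was called for membrane against bone marrow and 0 in the other 5 comparisons. A term for the column tag was not applied to membrane against bone marrow, whose libraries carry different tags. With a window of 10000 bp 2 members had a differential site (31.6% of all genes tested), against 5 at 50000 bp (54.4%) and 7 at 100000 bp (70.3%). A replicate block, for numbers that do not pair the samples (0 pairs of groups with r over 0.1), left the count of members the same in 17 of 17 comparisons and lost 0 calls.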
